A study of Mus musculus with 6 samples.

Results

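The 10 genes described here are markers, regulators and receptors of dendritic cells: Flt3, Xcr1, Clec9a, Batf3, Zbtb46, Cd209a, Ccr7, Fscn1, Irf8 and Wdfy4. They were taken by symbol from a table of 55357 genes, each symbol was found on 1 row, and 7 of the 10 averaged at least 1 TPM (an abundance scaled by transcript length and to 1 total per library) over the 6 tumours, the level needed to enter the test. The tumours grew under the skin of C57BL/6J mice from 250000 injected KPC1242 cells, a mouse line of pancreatic ductal adenocarcinoma. The FA group (3 tumours) came from mice given 2 mg folinic acid, a reduced folate, by daily gavage on days 8 to 12, and the PBS group (3 tumours) from mice given phosphate-buffered saline on the same days; every tumour was harvested on day 14. All tumours came from 1 cell line in 1 host strain with its own immune system, and nothing in the labels states that each came from a different mouse, so the tests measure the spread between these tumours. The prefix of the sample descriptions also differs between the groups, and its meaning is not given. Treatment therefore cannot be told apart from whatever the prefix stands for.

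Dendritic cells take up antigen in tissues and present it to T cells in lymph nodes. Conventional dendritic cells arise from precursors that depend on the cytokine Flt3 ligand. The type 1 branch (cDC1) cross-presents antigen from dead cells to CD8+ T cells, and the type 2 branch (cDC2) mainly serves CD4+ T cells. In tumours, cDC1 are known for carrying tumour antigen to lymph nodes, and a mature state marked by Ccr7 and Fscn1 is found among cells of both branches. Several of the genes are not private to dendritic cells: Irf8 is also made by macrophages and B cells, Ccr7 by T and B cells, Zbtb46 by endothelium, and Fscn1 by carcinoma and endothelial cells. In whole-tumour RNA, fewer cells of a type and less RNA per cell cannot be told apart.

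Apart from Fscn1, the transcripts were low, at 12.03 TPM or less in every tumour, and 1 tumour was highest for most of them. FA replicate 3 held the highest TPM of 9 of the 10 genes, against 29.4% of the 15023 genes tested, and the exception was Xcr1. With all tumours, 9 of the 10 had a higher mean TPM in FA than in PBS tumours (51.8% of tested genes did), again with the exception of Xcr1. Without FA replicate 3, the number was 4 of 10 (54.4% of tested genes), namely Flt3, Ccr7, Fscn1 and Wdfy4. For none of the 10 did the FA and PBS values separate without overlap, as they did for 4.69% of tested genes (2.48% higher in FA and 2.22% lower). No tested gene was called: by limma with adjusted p under 0.05, 0.0% of tested genes were higher and 0.0% lower, and 1.28% (192 genes) had an unadjusted p under 0.05, with none of the 7 tested dendritic cell genes among them. The direction of the group means therefore rests on FA replicate 3 for 5 genes, and the levels below are given for each tumour.

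FA replicate 3 stood apart in other respects too. It held the highest value of 29.4% and the lowest value of 37.5% of tested genes. Its summed TPM of 8 endothelial markers was 343, against 91.8 to 155 in the other tumours, that of 6 fibroblast markers 3598 against 955 to 1868, and that of 6 skeletal muscle markers 1103 against 12.7 to 160. Its 12 macrophage and monocyte markers summed to 2301 TPM, against 1129 to 1439, and all 12 were highest there. Ptprc, which encodes the leukocyte surface protein CD45, reached 13.3 TPM in FA replicate 3, where the other tumours ran from 6.75 to 9.50 TPM. The part of these cell types in the dendritic cell values was not tested.

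**Figure D1:**
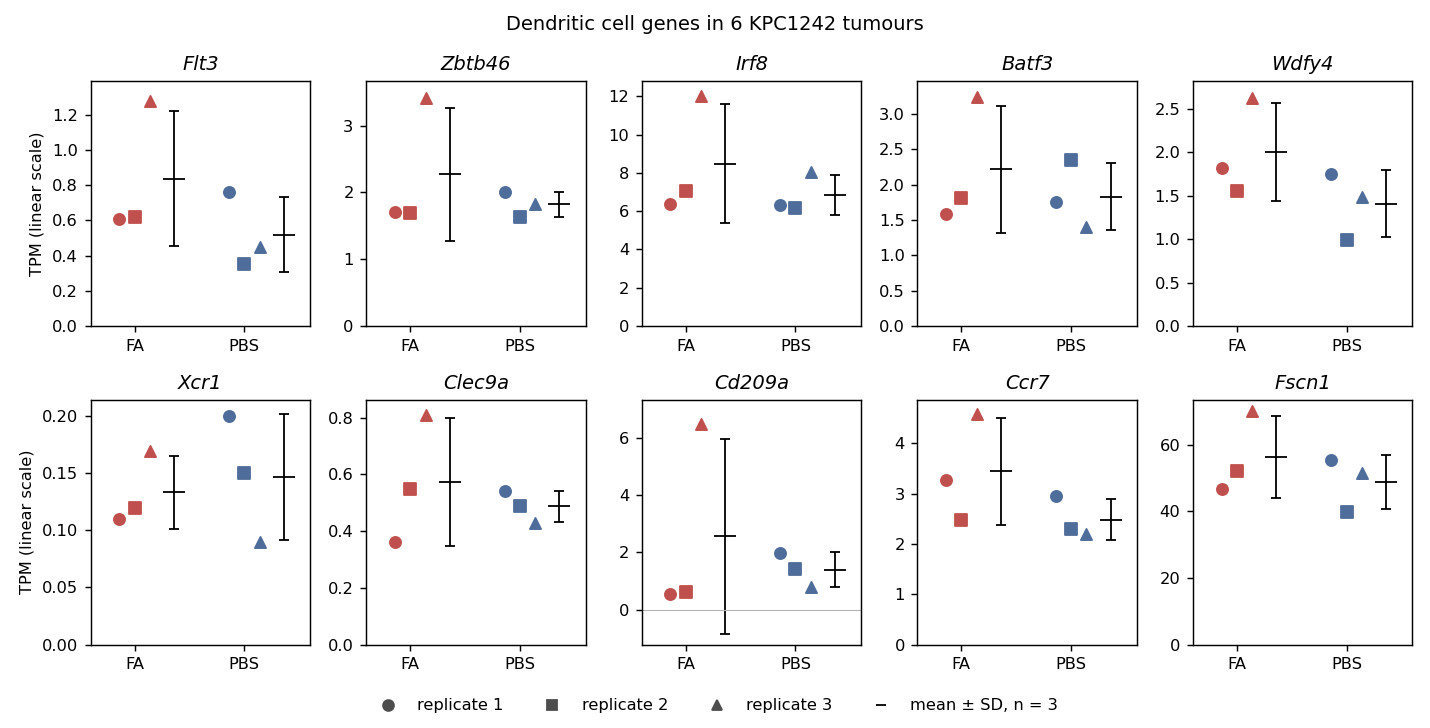
TPM of each gene (vertical axes, linear, one scale per gene) in FA and PBS tumours, with circles, squares and triangles for replicates 1, 2 and 3 and bars for the mean ± SD of 3 tumours. FA replicate 3 (red triangle) is the highest point of every panel but Xcr1, where PBS replicate 1 at 0.20 TPM is highest.

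The 250 bases before the annotated start of 4 of the genes are shown because they are the 2 most abundant members and the 2 lectin genes, which differ in level and in spread. RefSeq's table for build GRCm38.p6 matched 9 of the 10 symbols, all but Ccr7. Positions are those of RefSeq, since no source used here names the submitters' build. Sequences run 5′ to 3′ on the gene's strand, and capitals mark the motif found. For Irf8 the upstream one of 2 listed starts is shown.
Fscn1, chr5:142960105-142960354, plus strand: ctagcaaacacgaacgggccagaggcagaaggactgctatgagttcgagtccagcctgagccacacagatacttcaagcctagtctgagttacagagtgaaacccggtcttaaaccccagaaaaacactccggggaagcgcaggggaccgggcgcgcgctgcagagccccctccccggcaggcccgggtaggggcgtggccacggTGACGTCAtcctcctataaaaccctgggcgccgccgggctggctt
Irf8, chr8:120736108-120736357, plus strand: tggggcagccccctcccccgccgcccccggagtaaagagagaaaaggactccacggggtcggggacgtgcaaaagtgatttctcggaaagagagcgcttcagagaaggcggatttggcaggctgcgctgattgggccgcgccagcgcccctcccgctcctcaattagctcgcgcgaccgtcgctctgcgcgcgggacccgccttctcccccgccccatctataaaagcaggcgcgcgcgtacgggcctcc
Clec9a, chr6:129408612-129408861, plus strand: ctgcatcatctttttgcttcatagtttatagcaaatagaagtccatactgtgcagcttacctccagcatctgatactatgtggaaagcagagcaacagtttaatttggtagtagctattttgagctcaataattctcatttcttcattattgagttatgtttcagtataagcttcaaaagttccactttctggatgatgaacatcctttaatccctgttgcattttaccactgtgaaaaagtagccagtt
Cd209a, chr8:3748985-3749234, minus strand: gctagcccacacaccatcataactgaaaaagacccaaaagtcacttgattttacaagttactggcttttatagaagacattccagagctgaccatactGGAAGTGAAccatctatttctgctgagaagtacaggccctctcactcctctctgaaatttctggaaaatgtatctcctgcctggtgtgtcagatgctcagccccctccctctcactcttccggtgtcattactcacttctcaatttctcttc

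The bases G and C made up 62.4% of the Fscn1 window and 67.2% of the Irf8 window, and 35.6% and 44.8% of the windows of Clec9a and Cd209a. Core motifs were searched on both strands: GAAANNGAA (interferon response), GGAANNGAA (ETS with IRF), TGANTCA (AP-1) and TGACGTCA (cyclic AMP response). Of 32851 windows of this length, 7.13%, 6.99%, 6.75% and 1.55% held them in that order. Among the 4 windows shown, TGACGTCA began 45 bases before the Fscn1 start and GGAANNGAA 152 bases before the Cd209a start. In the windows of the other matched genes, TGANTCA was found 61 bases before the Zbtb46 start, with no further match. Ccr7 had no window to search. No matches overlapped. A match describes letters and not binding, and the absence of a match holds for these letters in this window.

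Flt3 (ENSMUSG00000042817) encodes the receptor tyrosine kinase through which Flt3 ligand sustains dendritic cell precursors and conventional dendritic cells. It was at 0.61, 0.62 and 1.28 TPM in FA replicates 1 to 3 and at 0.76, 0.35 and 0.45 TPM in PBS replicates 1 to 3. PBS replicate 1 exceeded FA replicates 1 and 2, so the groups overlapped. The means were 0.837 ± 0.384 and 0.52 ± 0.214 TPM (SD, n = 3 each), a difference of 0.26 on the log2(TPM + 1) scale (exact two-sided permutation p = 0.3, where 0.1 is the smallest that 3 against 3 tumours can give). It was 0.10 without FA replicate 3 and 0.58 with a pseudocount of 0.1 in place of 1. That scale understates the change of genes with few TPM. Its ligand gene Flt3l ranged from 3.93 to 5.50 TPM over the 6 tumours, with both ends in PBS tumours, and differed by 0.03 ± 0.15 (log2 difference with its standard error).

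Of the lineage factors, Zbtb46 (ENSMUSG00000027583), a zinc finger repressor that marks committed conventional dendritic cells, was at 1.71, 1.69 and 3.42 TPM in FA and 2.01, 1.63 and 1.83 TPM in PBS tumours. FA replicate 3 was 2.00 times the median of the other 5 tumours, which all lay between 1.63 and 2.01 TPM. The log2 difference was 0.17 ± 0.23 (95% interval -0.37 to 0.72), and without FA replicate 3 it was -0.06. Irf8 (ENSMUSG00000041515), the interferon regulatory factor required for cDC1 and for monocyte development, was the second most abundant of the 10. It stood at 6.35, 7.08 and 12.03 TPM in FA and 6.34, 6.15 and 8.05 TPM in PBS tumours. PBS replicate 3 was above FA replicates 1 and 2. The difference was 0.23 ± 0.23 (interval -0.33 to 0.80), and -0.02 without FA replicate 3.

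Batf3 (ENSMUSG00000026630) encodes a basic leucine zipper factor that keeps Irf8 active in cDC1. Its values were 1.59, 1.81 and 3.24 TPM in FA and 1.75, 2.34 and 1.40 TPM in PBS tumours. The second highest value was PBS replicate 2, and the difference of 0.16 ± 0.24 (interval -0.41 to 0.73) was -0.06 without FA replicate 3. Wdfy4 (ENSMUSG00000051506) encodes a large BEACH-domain protein needed for cross-presentation of cell-associated antigen by cDC1. It was at 1.82, 1.55 and 2.63 TPM in FA and 1.75, 0.99 and 1.49 TPM in PBS tumours, and FA replicate 1 too was above every PBS tumour while FA replicate 2 was not. The difference was 0.31 ± 0.21 (interval -0.18 to 0.81), and 0.17 without FA replicate 3. For all 7 tested genes the adjusted p was 1 (limma), and the intervals of Zbtb46, Irf8, Batf3 and Wdfy4 reached at least 0.72, so increases of that size lie within them. Their lower ends lay between -0.41 and -0.18, so decreases lie within them as well.

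**Figure D2:**
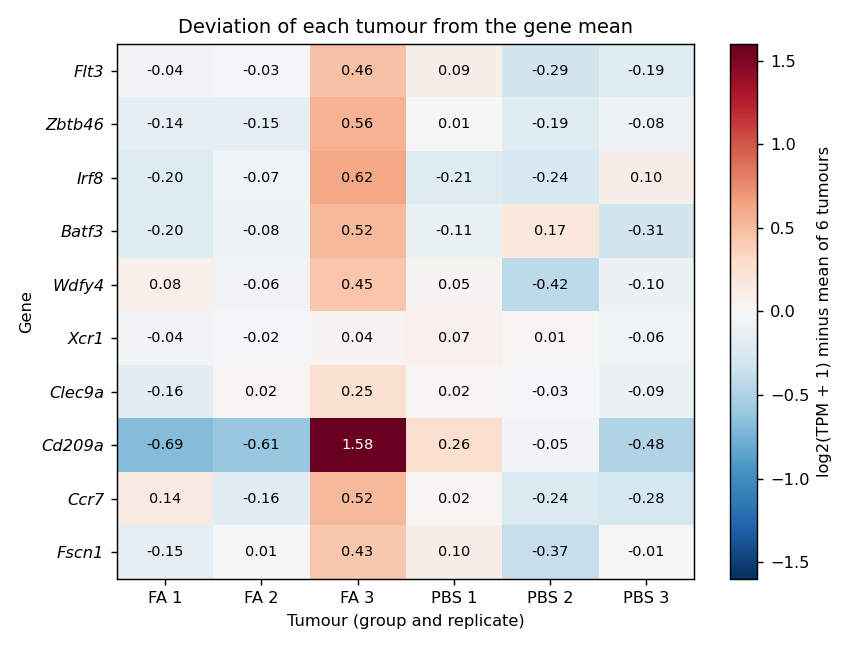
Deviation of log2(TPM + 1) from the mean of the 6 tumours, for each gene (rows) and tumour (columns), with red above and blue below the mean. The FA 3 column is above the mean for every gene, from 0.04 for Xcr1 to 1.58 for Cd209a, and FA 1 is below it for 8 of 10.

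The surface receptors that define cDC1 were the scarcest. Xcr1 (ENSMUSG00000060509), the receptor for the chemokine Xcl1, was at 0.11, 0.12 and 0.17 TPM in FA and 0.20, 0.15 and 0.09 TPM in PBS tumours. The table is rounded to 0.01 TPM, so these values span few steps, and PBS tumours held both the highest and the lowest. The difference was -0.02 (exact permutation p = 0.8). Clec9a (ENSMUSG00000046080), the C-type lectin with which cDC1 sense actin of dead cells, was at 0.36, 0.55 and 0.81 TPM in FA and 0.54, 0.49 and 0.43 TPM in PBS tumours. FA replicate 1 was the lowest and FA replicate 3 the highest of all tumours, and the PBS tumours lay between them with FA replicate 2. The difference was 0.07 (exact permutation p = 0.7) and turned to -0.03 without FA replicate 3. Xcl1, the ligand gene of Xcr1, was listed at 0 in FA replicate 1 and at 0.26 to 0.53 TPM in the other tumours.

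Cd209a (ENSMUSG00000031494), a C-type lectin gene of cDC2 and monocyte-derived dendritic cells, varied most. It was at 0.55, 0.64 and 6.48 TPM in FA and 1.99, 1.42 and 0.79 TPM in PBS tumours. FA tumours thus held the highest value and the lowest values, and FA replicate 3 was 8.20 times the median of the other 5 tumours. The log2 difference was 0.18 ± 0.62 (interval -1.29 to 1.66). Without FA replicate 3 it was -0.56, with both remaining FA tumours below all PBS tumours. It was the only one of the 10 genes separated in that setting, against 17.1% of tested genes, and it was not called (adjusted p = 0.9998 by limma, and 0.848 to 1 over all alternatives).

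Ccr7 (ENSMUSG00000037944), the receptor that guides mature dendritic cells to lymphatic vessels and nodes, was at 3.27, 2.47 and 4.58 TPM in FA and 2.95, 2.30 and 2.20 TPM in PBS tumours. FA replicates 1 and 3 were above all PBS tumours and FA replicate 2 lay among them. The difference of 0.33 ± 0.21 (interval -0.17 to 0.83) was 0.15 without FA replicate 3. Of its ligand genes, Ccl21a was listed at 0 in 5 tumours and at 1.58 TPM in FA replicate 3, and Ccl19 was listed at 0 in FA replicates 1 and 2, at 1.39 TPM in FA replicate 3 and at 0.21 to 0.53 TPM in the PBS group. Fscn1 (ENSMUSG00000029581) encodes fascin, the actin-bundling protein of dendrites and of invasive carcinoma cells. It was at 46.84, 52.15 and 70.15 TPM in FA and 55.53, 39.91 and 51.48 TPM in PBS tumours, with PBS replicate 1 above 2 of the FA tumours. The difference was 0.19 ± 0.18 (interval -0.24 to 0.63) and 0.03 without FA replicate 3.

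**Figure D3:**
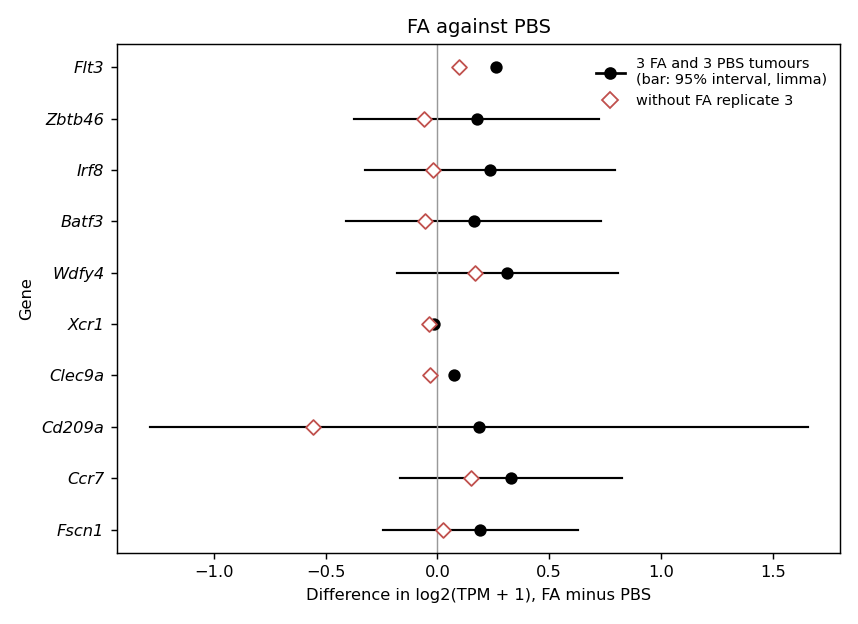
Difference in log2(TPM + 1), FA minus PBS (horizontal axis), for each gene: filled circles use all 6 tumours with limma's 95% interval as a bar (no bar for the 3 genes under the filter), and open diamonds leave out FA replicate 3. All 7 intervals include 0, and the diamonds of Xcr1, Clec9a, Batf3, Zbtb46, Cd209a and Irf8 lie below 0.

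Fscn1 alone made up 66.9% to 75.9% of the summed TPM of the 10 genes, and Irf8 8.59% to 11.8%. Means over the 6 tumours were 52.7 TPM for Fscn1 and 7.67 TPM for Irf8, and the range of each was clear of that of the next gene. Ccr7 followed at 2.96 TPM and was above Zbtb46 (2.05 TPM) in 6 of 6 tumours, although their ranges overlapped. Neighbours among Zbtb46, Batf3 (2.02 TPM), Cd209a (1.98 TPM) and Wdfy4 (1.71 TPM) could not be ordered, since each was above the next in only 3 or 4 of 6 tumours. Zbtb46 was above Wdfy4 in every tumour except FA replicate 1. Flt3 was at 0.678 TPM, below Wdfy4 in 6 of 6 tumours and above Clec9a (0.53 TPM) in 5 of 6. Xcr1 was last at 0.14 TPM, with no overlap with Clec9a. Among the 15023 tested genes, the mean of Fscn1 exceeded 79.0% and that of Irf8 31.9%, while Ccr7, Zbtb46, Batf3, Cd209a and Wdfy4 exceeded 8.47% to 16.6%. Summed without Fscn1, the other 9 genes gave 16.4, 16.5 and 34.6 TPM in FA and 18.3, 15.8 and 16.7 TPM in PBS tumours, so FA replicates 1 and 2 lay inside the PBS range.

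The spread between tumours was uneven across the genes. The coefficient of variation over the 6 tumours was 115% for Cd209a, 48.3% for Flt3 and 19.2% for Fscn1, and between 29.2% and 33.5% for the other 7. The SD within groups on the log2(TPM + 1) scale was set beside the SD that limma's trend gives to genes of the same level. It was 0.95 against 0.26 for Cd209a (3.60 times), 0.27 against 0.12 for Fscn1 (2.36 times) and 0.34 against 0.18 for Irf8 (1.87 times). Batf3, Zbtb46, Ccr7 and Wdfy4 lay between 0.971 and 1.27 times the trend, and 53.0% of tested genes were above it.

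The genes were also set against Ptprc in the same tumour. Ptprc in FA replicate 3 was 1.70 times the median of the other tumours, so dividing by it lowers that tumour for every gene alike. In units of Ptprc TPM, FA replicate 3 was highest for 3 of 10 genes, Flt3, Zbtb46 and Cd209a, and for 4.99% of tested genes. Irf8 stood at 88.4%, 74.7% and 90.8% of the Ptprc TPM in FA and at 66.7%, 91.1% and 103% in PBS tumours. FA replicate 3 was thereby 1.03 times the median of the others, where its TPM was 1.89 times. Clec9a stood at 5.01%, 5.80% and 6.11% in FA and at 5.68%, 7.26% and 5.51% in PBS tumours. Cd209a stood at 7.66%, 6.75% and 48.9% in FA and at 20.9%, 21.0% and 10.1% in PBS tumours, and FA replicate 3 was still 4.83 times the median of the others. Flt3 stood at 8.50%, 6.54% and 9.66% in FA and at 8.00%, 5.19% and 5.77% in PBS tumours. The FA mean was above the PBS mean for 4 of 10 genes per Ptprc, per Adgre1 (a macrophage gene) and per Itgax (the gene of CD11c, on dendritic cells and macrophages), and each time these were Flt3, Cd209a, Ccr7 and Wdfy4. Of tested genes, 9.80%, 12.4% and 10.3% had a higher FA mean in these ratios. Over these 30 ratios the groups separated for 1, Clec9a per Itgax, at 4.84% to 5.50% in FA and 5.54% to 5.93% in PBS tumours. Its nearest values, in FA replicate 3 and PBS replicate 3, are too close to order with TPM rounded to 0.01. The groups separated for 1.54% of tested genes per Itgax, 1.68% per Ptprc and 1.76% per Adgre1. These ratios are descriptions with no test.

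**Figure D4:**
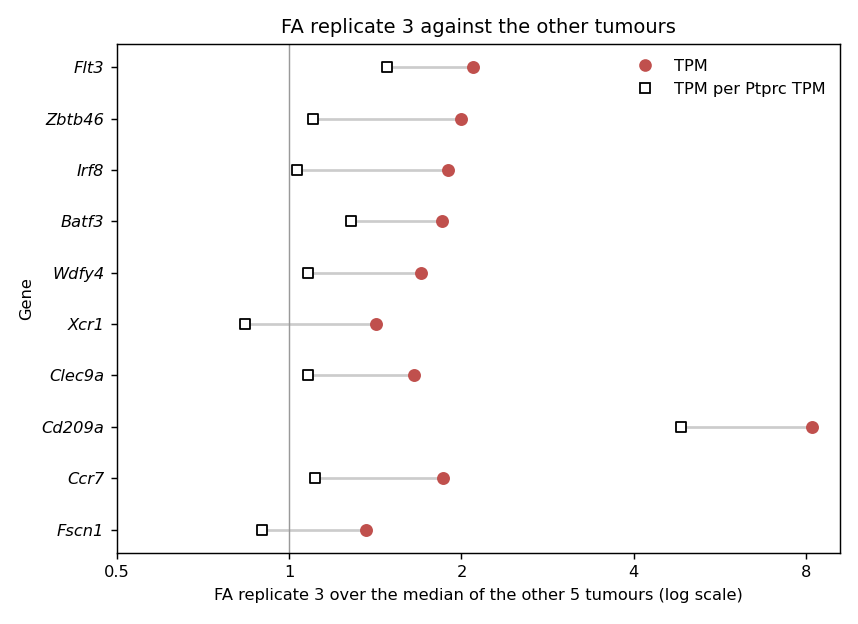
Value of FA replicate 3 divided by the median of the other 5 tumours (horizontal log axis) for each gene, as TPM (red circles) and as TPM per Ptprc TPM (open squares). Every red circle is above 1, from 1.36 for Fscn1 to 8.20 for Cd209a, whereas the squares run from 0.837 for Xcr1 to 4.83 for Cd209a and reach at most 1.28 for all but Cd209a and Flt3.

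The wider dendritic cell programme was described with lists chosen as related genes, and no gene on them was called. The median log2 difference was 0.16 for the 20 tested genes of the mature dendritic cell list (16 with a higher and 4 with a lower FA mean TPM), 0.18 for 11 cDC2 genes (8 and 3), -0.003 for 11 cDC1 genes (5 and 6) and 0.21 for 6 plasmacytoid genes (5 and 1). Over all tested genes the median was 0.002. Without FA replicate 3 the medians were -0.04, -0.08, -0.02 and 0.08. Highest in FA replicate 3 were 15 of 21 mature, 9 of 13 cDC2, 6 of 14 cDC1 and 4 of 10 plasmacytoid genes. The plasmacytoid median leaves out Siglech, Ccr9, Pacsin1 and Spib, which were under the filter. It rests on Bst2, Tcf4, Runx2, Irf7, Ly6d and Cox6a2. Cox6a2 differed by 0.77 ± 0.82, with 9.22 TPM in FA replicate 3 and at most 1.37 TPM in the other tumours. Whether plasmacytoid cells made these transcripts was not tested.

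Within the mature list, Ccl22, a chemokine gene of mature dendritic cells, was at 9.40, 5.91 and 9.16 TPM in FA and 7.69, 5.50 and 5.02 TPM in PBS tumours, a difference of 0.37 ± 0.22. FA replicate 1 was highest, and PBS replicate 1 lay above FA replicate 2. Ccl17, which signals through the same receptor as Ccl22, was at 13.9, 12.9 and 44.0 TPM in FA and 17.5, 14.8 and 10.9 TPM in PBS tumours, and its difference of 0.47 turned to -0.07 without FA replicate 3. The costimulatory genes Cd40 and Cd86 differed by 0.28 ± 0.22 and 0.15 ± 0.20. Il12b, which encodes a subunit of interleukin 12, was between 0.09 and 0.33 TPM in every tumour. The 2 most abundant genes of the list, Marcksl1 and Socs2, differed by -0.11 ± 0.08 and 0.07 ± 0.16. They averaged 127 and 61.0 TPM over the 6 tumours, against 2.96 TPM for Ccr7, and which cells made them was not tested.

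Among cDC2 genes, Clec10a, a galactose-binding lectin gene shared with macrophages, was at 8.90, 10.3 and 24.6 TPM in FA and 10.5, 12.3 and 6.98 TPM in PBS tumours. It had its peak in FA replicate 3, as Cd209a did, but the other FA tumours lay within the PBS range. Sirpa, an inhibitory receptor gene of cDC2 and macrophages, differed by 0.19 ± 0.26 and Notch2 by -0.15 ± 0.21. Irf4, the cDC2 factor, was between 0.32 and 1.22 TPM. The most abundant genes of the cDC1 list were Cd24a and Id2, which many other cells express, at -0.23 ± 0.14 and -0.14 ± 0.11. Of the plasmacytoid list, Siglech, a receptor gene of those cells, stayed between 0.04 and 0.28 TPM, and the abundant but less specific Bst2 and Tcf4 differed by 0.12 ± 0.21 and 0.05 ± 0.11. Cd207, the langerin gene of Langerhans cells, was listed at 0 in 3 tumours and at 0.03 TPM in the other 3.

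Of 13 tested growth factor, chemokine and receptor genes, 10 had a higher and 3 a lower FA mean TPM, with a median difference of 0.17 (0.04 without FA replicate 3). Csf2, the cytokine gene of GM-CSF, was at 1.81, 2.97 and 9.41 TPM in FA and 2.02, 1.84 and 2.78 TPM in PBS tumours, so its excess lay in FA replicate 3. Ccl5, a chemokine gene that attracts cDC1 and T cells, was at 7.45, 6.41 and 9.33 TPM in FA and 6.93, 3.72 and 4.64 TPM in PBS tumours, a difference of 0.54 ± 0.22 that was 0.41 without FA replicate 3. One PBS tumour exceeded FA replicate 2, and the adjusted p was 1 (limma). Ccl20, a chemokine gene whose receptor is Ccr6, is named after its values were seen. It was the 1 of 13 tested genes of the list with separate groups, which 4.69% of all tested genes had. It was at 9.84, 8.80 and 7.60 TPM in FA and 6.45, 7.48 and 6.25 TPM in PBS tumours, a difference of 0.33 ± 0.13 that was 0.42 without FA replicate 3, with an adjusted p of 1 (limma). Kitl and Csf1, the most abundant of the list, differed by 0.11 ± 0.15 and 0.17 ± 0.18.

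All 11 pan-dendritic and MHC class II genes were highest in FA replicate 3, with a median difference of 0.15 that was -0.08 without that tumour. Itgax was at 7.44, 10.2 and 14.7 TPM in FA and 9.65, 8.26 and 7.76 TPM in PBS tumours. Cd74, the invariant chain gene, and H2-Aa, a class II chain gene, differed by 0.10 ± 0.23 and 0.12 ± 0.23. Of 11 cross-presentation genes, 9 had a higher FA mean, with a median of 0.13 (0.03 without FA replicate 3), and B2m and Sec22b differed by 0.10 ± 0.11 and -0.04 ± 0.07. Macrophage and monocyte markers had a median of 0.23 over 11 tested genes (-0.06 without FA replicate 3). Adgre1 was at 10.1, 11.3 and 18.7 TPM in FA and 12.9, 10.3 and 9.77 TPM in PBS tumours.

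**Figure D5:**
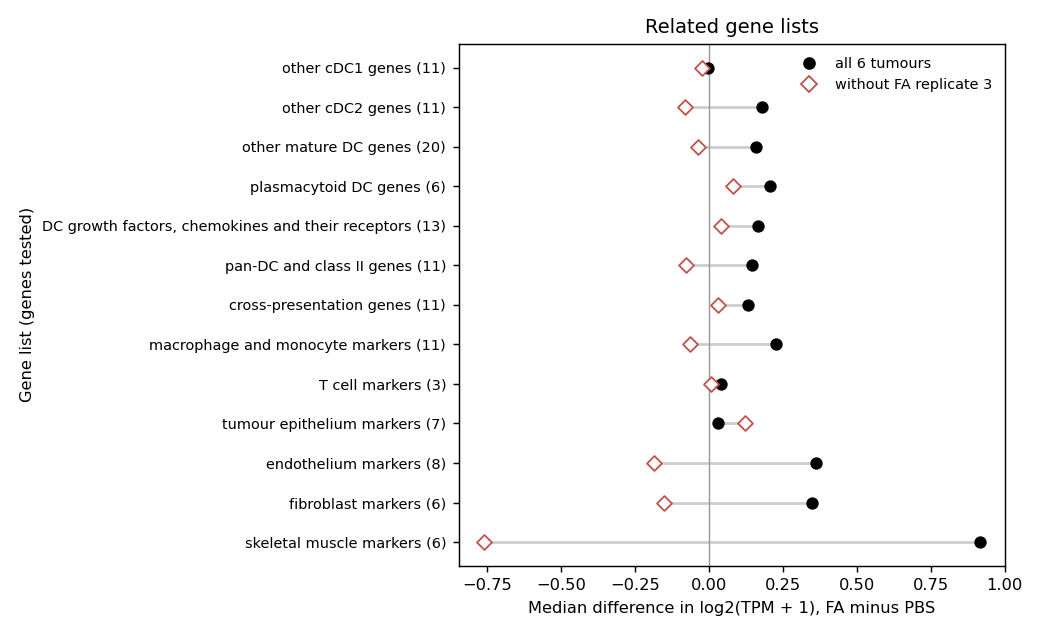
Median difference in log2(TPM + 1), FA minus PBS (horizontal axis), of each related gene list with at least 3 tested genes (number tested in brackets), with all 6 tumours (filled circles) and without FA replicate 3 (open diamonds). Leaving out FA replicate 3 moves the mature dendritic cell list from 0.16 to -0.04, macrophages from 0.23 to -0.06 and skeletal muscle from 0.92 to -0.76.

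Markers of other cells that could carry these transcripts were also read. B cell markers summed to 9.38 TPM in FA replicate 3 and to 3.61 to 5.36 TPM in the other tumours, mostly from Ebf1, and the defining gene Ms4a1 was at or under 0.09 TPM in every tumour. T cell markers summed to 25.8 to 31.5 TPM in FA and 27.4 to 29.7 TPM in PBS tumours. Tcf7 (14.8 to 17.3 TPM) and Trbc2 (6.68 to 9.93 TPM) were the most abundant and made up most of every sum. Cd3d, Cd3e and Cd3g were at or under 0.78 TPM, so the sums hardly reflect these Cd3 genes. Trbc2 was lower in each FA than in each PBS tumour (adjusted p = 1 by limma), as were 2.22% of tested genes. Of the 3 tested T cell markers, 2 had a higher and 1 a lower FA mean TPM, and Trac differed by 0.41 ± 0.20. Cd3d, under the filter, went the other way from Trbc2, at 0.37, 0.25 and 0.30 TPM in FA and 0.13, 0.16 and 0 TPM in PBS tumours. Of tested genes, 2.48% were higher in each FA than in each PBS tumour. Tumour epithelium markers, among cells that could hold Fscn1, summed to 5560 to 5819 TPM in FA and 5005 to 5864 TPM in PBS tumours. The sum hides a split in FA replicate 3, where 3 of the 7 genes were highest while Cdh1, Msln and Muc1 were lowest. Endothelium markers, beside Zbtb46 and Fscn1, were all highest in FA replicate 3. The part of these cells in the values of Irf8, Ccr7, Zbtb46 and Fscn1 was not tested.

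The tested gene whose profile lay closest to each member was sought by the root-mean-square difference of centred log2(TPM + 1) over the 6 tumours. Cd209a was closest to Clec14a, an endothelial lectin gene (0.136), which was at 0.54, 0.65 and 5.61 TPM in FA and 2.56, 1.22 and 0.80 TPM in PBS tumours. Ccr7 was closest to Samsn1 (0.0732), which is on the mature dendritic cell list. Irf8 was closest to Plaur (0.0507), Batf3 to Mall (0.0443), Zbtb46 to Birc5 (0.0282), Fscn1 to Nin (0.0261) and Wdfy4 to Srl (0.0331). With 6 tumours and 15023 genes, close neighbours are found for most profiles, and these are descriptions only.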

How the data were processed

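Values were the TPM that the authors deposited for 6 tumours. FastQC, STAR, featureCounts and RSEM were used per the submitters' processing notes, which give no version or role here. The genome build is not given in the sources used here. Columns were matched to tumours by the sample descriptions, whose prefix differs between the groups. TPM holds no depth, so no counting interval is given.

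From these, log2(TPM + 1) of the 15023 genes averaging 1 TPM or more was fitted with limma 3.58.1 in R 4.3.3 (FA against PBS, no covariate, variance trend, two-sided, Benjamini-Hochberg over all tested genes, threshold 0.05), after a check on simulated data. The 3 members under the filter had an exact permutation test over 20 assignments. SD are over 3 tumours, and log2 differences carry standard errors. Alternatives were other pseudocounts, filters, scalings, variance models, the replicate number as a block, and leaving out each tumour. Genes named are the members, a fixed set, the 2 most abundant of each dendritic cell list and each member's closest profile. Others (Ms4a1, Cd3d, Cd3e, Cd3g, Tcf7, Trac, Trbc2, Ccl20, Ebf1, Cdh1, Msln and Muc1) were named after their values were seen. So were Ccr9, Pacsin1, Spib, Runx2, Irf7, Ly6d and Cox6a2 of the plasmacytoid list. A marker gene of the lists is not reported here. The members and lists were chosen with earlier results of these data known.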

Additional observations from a re-analysis of the deposited data

How the results depend on the processing

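By limma, the counts of 0 higher and 0 lower genes held in every setting but 2: without a filter (other than genes at 0 throughout) 2 genes were higher, and omitting single tumours yielded 0 to 1 lower genes, the 1 being without FA replicate 3. No dendritic cell gene was called in any setting. Leaving out 1 tumour gave 4 to 10 of the 10 genes a higher FA mean (4 without FA replicate 3, 10 without PBS replicate 1) and 0 to 3 genes without overlap, the 3 being Flt3, Ccr7 and Wdfy4 without PBS replicate 1, where 13.3% of tested genes separated. The log2 differences then ran from -0.052 to 0.017 for Xcr1, -0.033 to 0.17 for Clec9a, -0.056 to 0.30 for Batf3, -0.062 to 0.30 for Zbtb46, -0.56 to 0.58 for Cd209a (-0.011 without PBS replicate 3) and -0.018 to 0.40 for Irf8. Lowest values came without FA replicate 3, except for Xcr1 (without PBS replicate 3). Array weights, which gave FA replicate 3 a weight of 0.217 and the others 1.03 to 2.23, turned Zbtb46 to -0.010 and Cd209a to -0.30. Flt3, Ccr7, Fscn1 and Wdfy4 stayed above 0 in all settings run, which for Flt3 did not include array weights. Fscn1 was close to 0 in some of them, at 0.037 with array weights and 0.054 without PBS replicate 2. That tumour was lowest for 5 of the 10 genes and for 17.4% of tested genes. Without it, Flt3 was at 0.18, Wdfy4 at 0.18 and Ccr7 at 0.29. The cause of these changes was not tested.

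The replicate number as a block left 0 higher and 0 lower genes. Deviations of same-numbered tumours from their group means had correlations across genes of -0.21, 0.05 and -0.02. With means of only 3 tumours, these correlations cannot show whether the numbers pair the tumours. With a mean of at least 5 TPM, only Fscn1 and Irf8 were left to test, and the 3 genes under the filter had no value with array weights, a block or no variance trend. What depth limits cannot be told from TPM.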
